A study of Mus musculus with 12 samples.

Results

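The Myc, Max and Mxd network was described in glomerular endothelial cells (GEC) by the 9 genes *Myc*, *Mycl*, *Max*, *Mxd1*, *Mxd4*, *Mxi1*, *Mnt*, *Mga* and *Mlx*, which were chosen by name with their counts in these libraries already known. All 9 were in both deposited tables, among 17811 genes of the dim tdT table, 17521 of the bright tdT table and 15768 in both. Because the counts were known when the genes were chosen, their values are given as a description, with no p. RNA was sequenced from cells of C57BL/6 mice at 4 months of age that carried the TekCre tdTomato reporter, in which the Cre is driven by the *Tek* promoter and switches on tdTomato. Cells from sieved, digested glomeruli were sorted into a dim tdT and a bright tdT subpopulation. The 3 wild type (WT) mice and the 3 Alport syndrome (AS) mice, whose genotype label is Col4a5 -/-, gave a library of each subpopulation, so that 12 libraries fell into 4 groups of 3. The libraries of a mouse share its number in the labels, the mice of the genotypes are different animals, and the AS mice were of 1 mutant line.

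MYC is a basic helix-loop-helix leucine zipper transcription factor that binds DNA as a dimer with MAX, mostly at the E-box CACGTG, and is known for raising genes of ribosome production, nucleotide synthesis and cell growth. MXD1, MXD4, MXI1 and MNT also dimerize with MAX, recruit the SIN3 corepressor and compete with MYC for MAX and for the same sites. MGA pairs with MAX inside a Polycomb complex, and MLX is the MAX-like partner of MNT, MXD1, MXD4 and of the glucose-sensing proteins MLXIP and MLXIPL. In endothelium, MYC is known for its part in vessel growth and metabolism.

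Since the E-box is the site for which the members compete, the members' own promoters are shown first. Of the 9 members, 8 had a RefSeq promoter window (GRCm38, 250 bases before to 50 after the start), and 4 of these held CACGTG, which reads the same on both strands. Over all genes with a window, 8.09% of 27025 held it. The 3 windows below lie wholly before the start of *Mxd4*, *Mnt* and *Mlx*, on the gene's strand, with the E-box in capitals, and are at chr5:34187907-34187946 (minus), chr11:74830784-74830823 (plus) and chr11:101087233-101087272 (plus).
Mxd4: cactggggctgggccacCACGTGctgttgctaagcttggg
Mnt: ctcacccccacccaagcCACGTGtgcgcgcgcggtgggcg
Mlx: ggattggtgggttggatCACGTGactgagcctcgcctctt
The E-box of *Max* began 3 bases before its start. For comparison, 4 genes counted among the targets of MYC were scanned. The windows of *Ncl* and *Odc1* held no CACGTG, and *Npm1* had no window. The window of *Cdk4*, a cell cycle kinase gene, held 4 E-boxes, and the first is at chr10:127063346-127063385 (plus).
Cdk4: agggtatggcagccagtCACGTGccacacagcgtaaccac
Among the lists of targets, 7 of 29 ribosome biogenesis genes (24.1%) and 8 of 30 metabolism and growth genes (26.7%) with a window held the motif. A match is a stretch of letters, and binding was not measured.

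Counts on genes were 11440169 to 13923267 in the dim tdT and 13674045 to 15074909 in the bright tdT libraries. The labelled cell type was checked with 14 endothelial markers, whose summed level was 12000 to 18270 CPM (counts scaled to a common library size) in the bright tdT but 696 to 1434 CPM in the WT-dim tdT and 236 to 321 CPM in the AS-dim tdT libraries, with none of the markers at 0. Myeloid markers (9 genes summed in dim tdT, 7 in bright tdT) went the other way, at 2740 to 4329 CPM in WT-dim tdT and 6506 to 8497 CPM in AS-dim tdT, against 34.7 to 44.9 CPM in WT-bright tdT and 46.2 to 72.7 CPM in AS-bright tdT. B cell markers (6 genes summed in dim tdT, 5 in bright tdT) summed to 1260 to 2339 CPM and T and NK cell markers (10 and 4 genes) to 443 to 601 CPM in the dim tdT libraries, against at most 13.4 and 8.71 CPM in the bright tdT libraries, so the dim tdT libraries go against their endothelial label. Proximal tubule markers were highest in the libraries of WT mouse 1 (8321 CPM dim tdT, 4070 CPM bright tdT) against 1852 to 2143 CPM (dim tdT) and 727 to 1064 CPM (bright tdT) in the other WT libraries. In AS they summed to 80.3 to 626 CPM in dim tdT and 184 to 909 CPM in bright tdT, where AS library 2 lay within the WT range. Counts of *Col4a5* were 439 to 877 in WT-dim tdT, 17 to 51 in AS-dim tdT, 69 to 158 in WT-bright tdT and 43 to 104 in AS-bright tdT. They cover the whole gene and not the mutated site, so they do not check the genotype. In bulk RNA, fewer cells of a type and less RNA per cell cannot be told apart.

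*Myc* was the member with the widest range of group means, 3.57 on the log2 CPM scale. It is on chr15:61985391-61990374 (plus strand, GRCm38). In the WT-bright tdT libraries it had 156, 159 and 183 counts, and in the AS-bright tdT libraries 806, 845 and 1281. The WT-dim tdT libraries had 704, 582 and 864 counts of *Myc*, and the AS-dim tdT libraries 1876, 2399 and 1211. The lowest AS library was above the highest WT library in both subpopulations, and the WT-bright tdT libraries were the lowest of all. In CPM, the means were 11.1 ± 1.10 in WT-bright tdT, 69.1 ± 21.1 in AS-bright tdT, 61.3 ± 11.8 in WT-dim tdT and 142.7 ± 51.8 in AS-dim tdT (SD, n = 3). *Myc* was therefore about as abundant, in CPM, in AS-bright tdT as in WT-dim tdT, where the values overlap.

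AS was compared with WT in the bright tdT cells to ask how the genotype related to gene expression in the cells with strong reporter signal. *Myc* was 5.92-fold higher in AS (log2 fold change 2.57, SE 0.28) and was the 1 member among the genes called, that is, with an adjusted p under the threshold of 0.05 in edgeR's quasi-likelihood test. Of 14396 genes tested, 0.452% were called (0.188% higher, 0.264% lower). All AS libraries lay above all WT libraries for *Myc* and *Max*, as for 13.6% of all genes (10.9% lay below, 24.5% either way). These shares are given as background and nothing is read from them for genes chosen with these counts known. Without WT library 3, AS library 1 or AS library 3, 0 genes were called at all, and the log2 fold change of *Myc* then lay between 2.28 and 2.66. The version 3 quasi-likelihood fit of edgeR also called 0 genes, with *Myc* at 2.57. With the mean of the proximal tubule markers as a covariate it was 2.21 (SE 0.38) and with that of the leukocyte markers 3.06 (SE 0.55), and it was not called in either fit. The summed myeloid markers were also higher in AS-bright tdT (46.2 to 72.7 CPM) than in WT-bright tdT (34.7 to 44.9 CPM), and their part in the *Myc* difference was not tested beyond the leukocyte fit. Podocyte markers were positive in AS over WT for 7 of 8 genes (median log2 fold change 0.90, 5 wholly higher in AS, summed 1329 to 1629 CPM against 1084 to 1289 CPM) and endothelial markers for 12 of 14 (median 0.39, 6 wholly higher), with 0 of either list called, and their part in the *Myc* and *Max* differences was not tested.

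*Max*, the partner of MYC and of the antagonists, had 517, 595 and 303 counts in WT-bright tdT and 899, 823 and 871 in AS-bright tdT. Its groups did not overlap, at 31.7 ± 11.3 and 60.9 ± 6.29 CPM (SD, n = 3), and its log2 fold change was 0.87 (SE 0.28), without a call. With the leukocyte markers as a covariate the value was 0.06. *Mxd1*, which recruits SIN3 and is known from differentiating cells, had 730, 1142 and 575 counts in WT-bright tdT and 1310, 1090 and 1312 in AS-bright tdT (log2 fold change 0.60, SE 0.29), and the groups overlapped. *Mxd4*, a related antagonist, had a log2 fold change of 0.48 (SE 0.26). *Mxi1*, *Mnt* and *Mlx* differed by 0.13, -0.18 and 0.06 on the log2 scale, and *Mga* by -0.56 (SE 0.25), all with overlapping groups and no call. *Mycl*, the MYC relative studied in dendritic cells and lung tumours, had 3, 1 and 15 counts in WT-bright tdT and 12, 17 and 4 in AS-bright tdT. Its log2 fold change was 0.79 (SE 0.83), without a call, and it reached 2.35 without WT library 3, which held the 15 counts, and 2.97 with the leukocyte covariate. The plot of CPM by library shows these levels together.

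**Figure D1:**
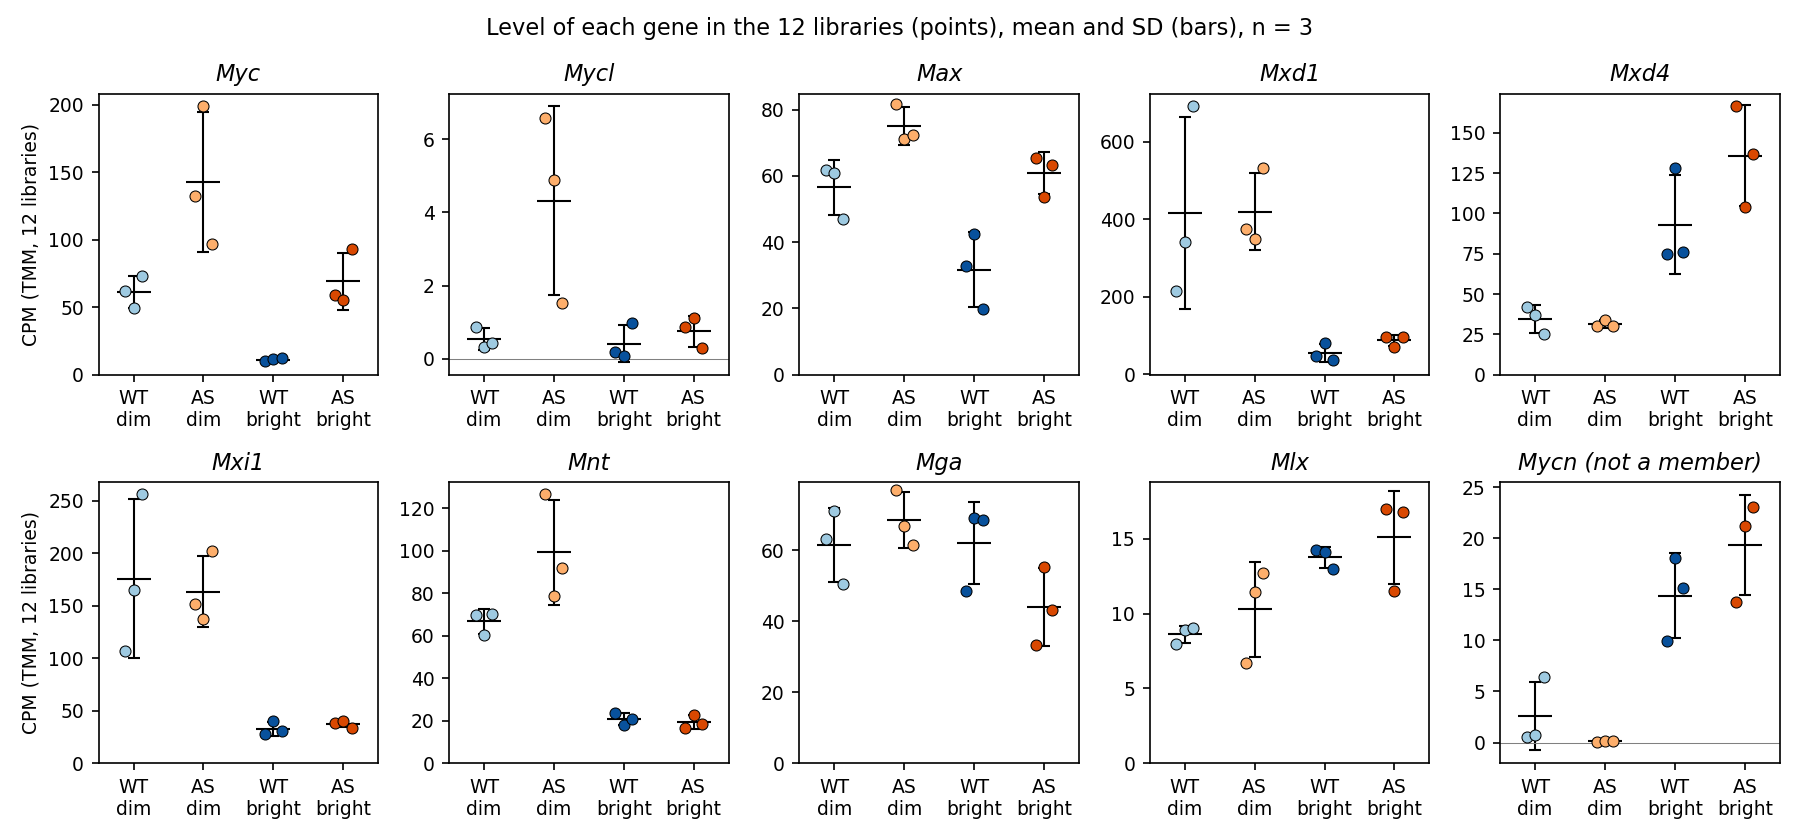
Level of the 9 members and of *Mycn* (y axis, CPM on TMM library sizes of all 12 libraries, linear and starting at or below 0) in WT and AS libraries of both subpopulations (x axis), with a point for each library and the mean ± SD as bars. *Myc* was lowest in WT-bright tdT (11.1 CPM), *Mxd1*, *Mxi1* and *Mnt* were higher in the dim tdT libraries, and *Mxd4* and *Mycn* in the bright tdT libraries.

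In the dim tdT cells the same question was asked of AS and WT. *Myc* was 2.28-fold higher in AS (log2 fold change 1.19, SE 0.30) and *Mycl* 7.76-fold higher (2.96, SE 0.75), and both were among the genes called, 8.63% of 14637 tested (2.21% higher, 6.42% lower). The *Mycl* counts were 10, 4 and 5 in WT-dim tdT and 93, 59 and 19 in AS-dim tdT, so the groups did not overlap but the change rests on few reads. *Mnt*, a widely expressed MAX partner and repressor, had 797, 711 and 834 counts in WT-dim tdT and 1793, 951 and 1153 in AS-dim tdT (log2 fold change 0.54, SE 0.23). *Max* had 705, 721 and 556 against 1157, 860 and 906 counts (0.38, SE 0.21). With *Myc* and *Mycl*, *Mnt* and *Max* were the 4 members whose AS libraries all lay above the WT libraries, as did 15.0% of all genes tested (31.2% either way, 16.2% below).

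*Mxd1* had a log2 fold change of -0.02 (SE 0.39) in dim tdT, without a call, and the value ranged from -0.99 with the proximal tubule covariate to 0.56 without WT library 3. Its WT-dim tdT counts were 2465, 4036 and 8208, and the AS-dim tdT counts were 5318, 4225 and 6677. *Mxi1* was likewise lowest in WT-dim tdT library 1 and highest in library 3, with 1217, 1949 and 3041 counts, and its log2 fold change between the genotypes was -0.13 (SE 0.31), and -1.0 with the proximal tubule covariate. *Mxd4*, *Mga* and *Mlx* had log2 fold changes of -0.17, 0.12 and 0.21.

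The calls for *Myc* and *Mycl* in dim tdT depended on the fit. *Myc* was called in 7 of 17 alternatives and *Mycl* in 6 of 17, and the log2 fold change of *Mycl* turned to -0.20 (SE 2.38) with the leukocyte markers as a covariate, where that of *Myc* was 0.73 (SE 1.05). With the proximal tubule markers as a covariate *Myc* was at 2.03 and *Mycl* at 3.79, neither of them called. With 1 library left out at a time, *Myc* was called only without WT library 3 (1.32), and the value without the others was 0.83 (AS library 2) to 1.41 (AS library 3). *Mycl* was called in none of these fits, at 2.48 to 3.47. Endothelial, myeloid and proximal tubule marker levels, given above, all separated AS-dim tdT from WT-dim tdT. So did the summed mesangial and mural markers (111.2 to 195.9 CPM in WT, 61.1 to 107.9 CPM in AS), and of 8 podocyte markers 3 were called lower and 1 higher (median -1.37). Their part in the differences of *Myc* and *Mycl* was not tested beyond those fits.

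**Figure D2:**
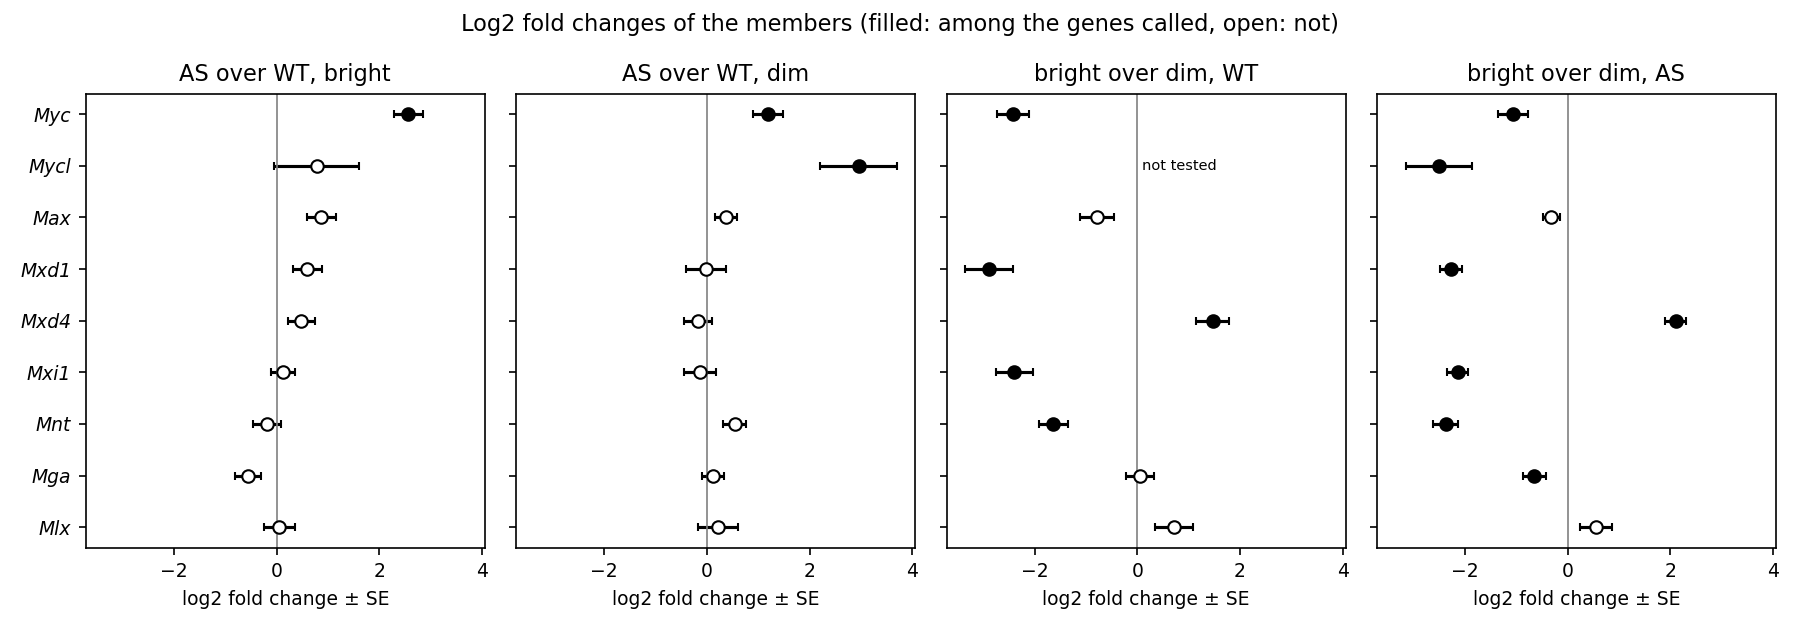
Log2 fold change with its SE (x axis) of each member (y axis) in AS over WT for bright tdT and dim tdT and in bright tdT over dim tdT for WT and AS; filled points are among the genes called, open points are not, and *Mycl* was not tested in WT. *Myc* lay at 2.57 and 1.19 in AS over WT and at -2.42 and -1.06 in bright over dim tdT, and *Mxd4* was the member called higher in bright tdT (1.47 and 2.10).

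Bright tdT was compared with dim tdT within each genotype to ask how the subpopulations differed. Of the members, 4 of 8 tested were called lower in bright tdT in WT and 6 of 9 in AS, and *Mxd4* was called higher in both. In WT, *Myc* fell by 2.42 on the log2 scale (SE 0.31), which is 5.35-fold, *Mxd1* fell by 2.89 (SE 0.47), *Mxi1* fell by 2.39 (SE 0.36) and *Mnt* fell by 1.63 (SE 0.28). *Mxd4* was 2.77-fold higher in bright tdT (1.47, SE 0.32). Among all 14247 genes tested in WT, 25.3% were called, 11.5% lower and 13.8% higher in bright tdT. *Max* (-0.79, SE 0.33) and *Mlx* (0.72, SE 0.37) were not called although their groups did not overlap, and with *Myc*, *Mxd1*, *Mxi1*, *Mnt* and *Mxd4* they made 7 members without overlap, 5 lower and 2 higher, against 41.9% of all genes (19.7% lower, 22.2% higher). *Mga* differed by 0.06 (SE 0.27).

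In AS, 55.1% of 14052 genes were called between the subpopulations (26.5% lower and 28.6% higher in bright tdT). *Mnt* fell by 2.37 (SE 0.24), *Mxd1* fell by 2.28 (SE 0.22), *Mxi1* fell by 2.14 (SE 0.20) and *Mycl* fell by 2.50 (SE 0.65). *Myc* fell by 1.06 (SE 0.29), which is 2.09-fold, and *Mga* fell by 0.65 (SE 0.22). *Mxd4* was 4.29-fold higher in bright tdT (2.10, SE 0.21), while *Max* (-0.31, SE 0.17) and *Mlx* (0.55, SE 0.31) were not called. Groups did not overlap for 7 members lower and 1 higher in bright tdT, against 30.5% and 31.9% of all genes (62.4% either way). Without AS-bright tdT library 1 the fall of *Myc* was 0.94 and was not called, and *Mga* was called in 11 of 15 alternatives.

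The 3 antagonists lower in bright tdT were called under all 15 alternatives in each genotype, and so was the opposite change of *Mxd4*. None of these alternatives held a marker covariate, which entered only the AS over WT fits. In counts, *Mxd4* had 475, 439 and 297 in WT-dim tdT and 426, 412 and 376 in AS-dim tdT, against 1181, 1800 and 1155 in WT-bright tdT and 2291, 1597 and 1876 in AS-bright tdT. *Mnt* had 371, 252 and 317 counts in WT-bright tdT and 229, 350 and 250 in AS-bright tdT. The lowest dim tdT library of *Mnt* (711 counts) was above every bright tdT library, although the bright tdT libraries were deeper. These differences moved with the leukocyte and endothelial markers above. Of 8 podocyte markers 5 were called lower and 1 higher in bright tdT in WT, and 2 lower and 5 higher in AS, and of 7 mesangial and mural markers 3 and 7 were called higher. The part of those markers in the members' differences, and in those of the lists below, was not tested. *Mxd4* overlaps an antisense gene, *Mxi1* and *Mlx* overlap genes on the other strand, and *Max* and *Mxd1* overlap unproven transcripts on their own strand, so their counts are uncertain to that extent because the strand counted is not given in the sources used here.

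Whether the genotype difference itself differed between the subpopulations was fitted over all 12 libraries. The interaction was 1.42 on the log2 scale for *Myc* (SE 0.42), larger in bright tdT, and -2.14 for *Mycl* (SE 1.29), which was -0.54 without WT-bright tdT library 3. Of the 9 members 0 were called by the edgeR quasi-likelihood fit, against 3.77% of 15084 genes (2.96% higher, 0.815% lower, 569 genes in all, and 877 with the mouse as a replicate block). At an unadjusted p under 0.05, 2783 genes passed in all. DESeq2 called 1186 genes and edgeR's likelihood ratio test 1114, and these were the 2 of 20 alternatives in which *Myc* was among the genes called.

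Levels of different members were compared per kilobase of exons, as RPKM (reads scaled to gene length and library size). For 90.57% of 19545 genes the deposited length equalled the summed exons of all transcripts plus 1 base per exon. *Myc* has 13578 bases there against 2717 in the union of its exons, and such lengths make the deposited RPKM understate genes with many transcripts. RPKM on the union length are given here, and those of the 2 tables were normalized separately. In WT-bright tdT, *Mxd4* was first of the 9 members at 11.1 ± 3.24 RPKM, followed by *Max* at 8.93 ± 3.01 and *Mxd1* at 7.88 ± 3.03 (SD, n = 3), each within the spread of its neighbour. *Myc* was the seventh there at 4.15 ± 0.35 RPKM, between *Mnt* (4.59 ± 0.77) and *Mga* (4.10 ± 0.66), and these 3 did not differ beyond their spread. In AS-bright tdT, *Myc* was first at 25.0 ± 7.38 RPKM, above *Max* at 16.7 ± 1.62 and *Mxd4* at 15.8 ± 3.60. On the deposited lengths *Myc* ranked 8 of 9 in WT-bright tdT and 4 of 9 in AS-bright tdT, behind *Mxd4*, *Mxd1* and *Max*.

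In the dim tdT libraries *Mxd1* was first in both genotypes, at 56.6 ± 33.5 RPKM in WT and 59.9 ± 14.02 RPKM in AS. *Mxi1* followed in WT at 24.8 ± 10.7 RPKM and *Myc* at 21.6 ± 3.94 RPKM, while in AS *Myc* was at 52.9 ± 18.7 and *Mxi1* at 24.2 ± 5.01 RPKM. *Myc* and *Mxd1* in AS-dim tdT did not differ beyond their spread, and *Myc* was above *Mxd1* in library 2 (72.8 against 49.2 RPKM). On the deposited lengths *Myc* ranked 5 of 9 in both dim tdT groups. *Mxd4*, first in WT-bright tdT, was at 3.91 ± 0.95 and 3.74 ± 0.23 RPKM in the dim tdT groups, near *Mlx* and *Mga*. *Mycl* was last of the members in every group, at 0.11 to 1.09 RPKM.

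The 4 antagonists *Mxd1*, *Mxd4*, *Mxi1* and *Mnt* were summed and set against *Myc* in each library. The WT-bright tdT libraries had 6.73, 8.73 and 5.25 antagonist RPKM per *Myc* RPKM, and the AS-bright tdT libraries 1.96, 1.63 and 1.12. On the deposited lengths the ratios were 25.1, 32.8 and 19.3 in WT-bright tdT and 7.47, 6.08 and 4.28 in AS-bright tdT. On neither length did the groups overlap, and since *Myc* was the member that moved, the ratio carries its choice and was not tested. The WT-dim tdT libraries had ratios of 2.91, 4.96 and 5.73 and the AS-dim tdT libraries 2.18, 1.24 and 3.61, which overlap. The sum itself was 23.7 to 35.7 RPKM in WT-bright tdT and 33.0 to 41.8 RPKM in AS-bright tdT, against 61.9 to 147.2 and 90.2 to 129.1 RPKM in the dim tdT groups. Its makeup also differed by subpopulation. *Mxd1* made up 54.5% and 54.4% of the sum in WT-dim and AS-dim tdT but 27.1% and 32.4% in WT-bright and AS-bright tdT. *Mxd4* made up 4.74% and 3.51% in the dim tdT groups and 38.7% and 41.8% in the bright tdT groups. RNA levels of this kind say nothing of the dimers formed.

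**Figure D3:**
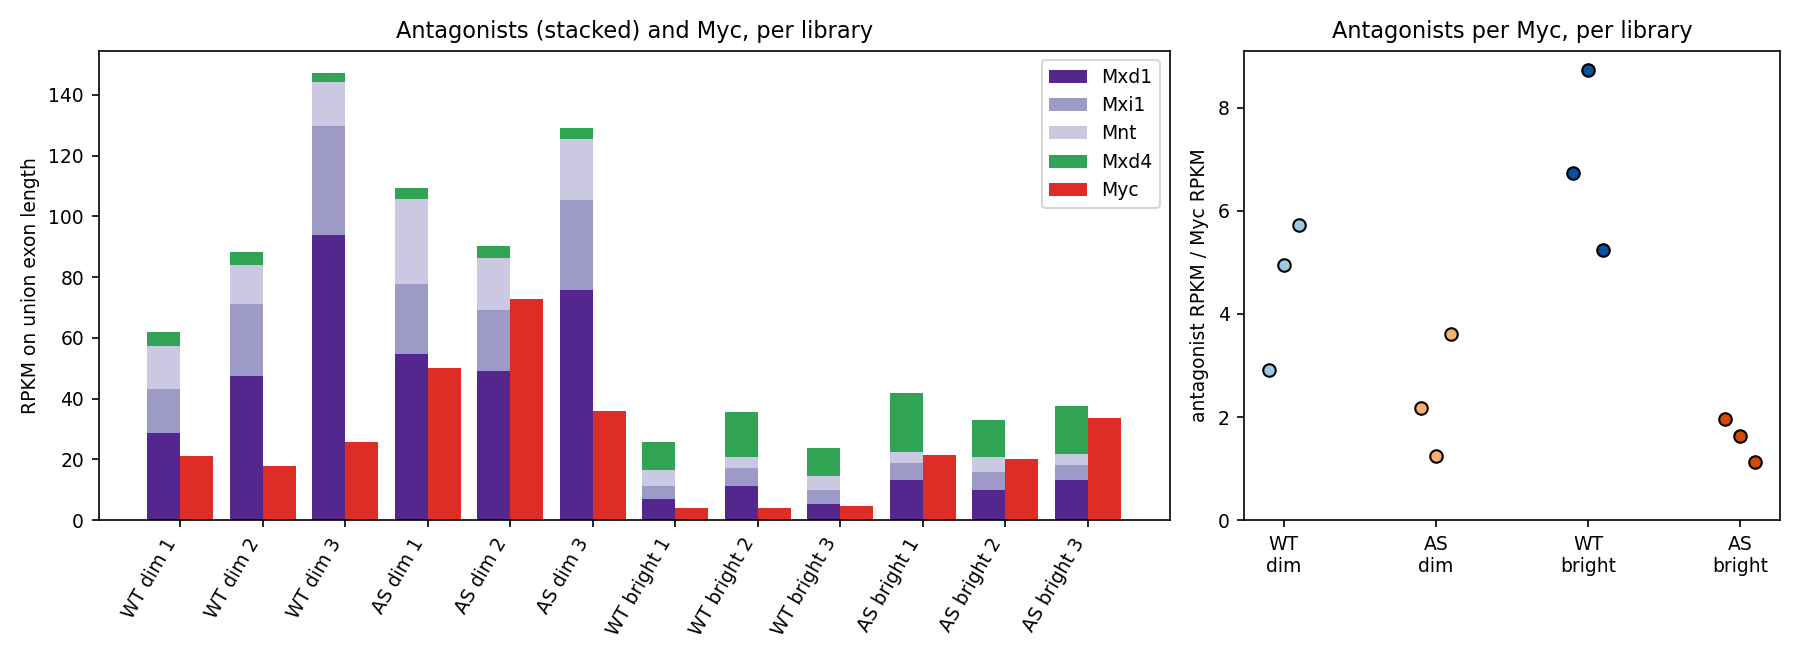
Left, RPKM on the union exon length (y axis) of *Mxd1*, *Mxi1*, *Mnt* and *Mxd4* as stacked bars and of *Myc* as a red bar in each of the 12 libraries (x axis). Right, the ratio of the stacked sum to *Myc* per library and group, at 5.25 to 8.73 in WT-bright tdT and 1.12 to 1.96 in AS-bright tdT.

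The genes with the most similar profile over the 12 libraries were sought for the 3 members with the widest range, among 12659 genes, by the root-mean-square (RMS) difference of centred log2 CPM. For *Myc* they were *Gas7* (0.57), *Arap1* (0.60) and *Neurl3* (0.60). *Neurl3*, an E3 ubiquitin ligase gene, averaged 81.1 CPM in WT-dim tdT, 163.6 in AS-dim tdT, 21.6 in WT-bright tdT and 58.7 in AS-bright tdT. The profile of *Mxd1* was nearest to *Gm26809* (0.20), *Bcl2l11* (0.31), which encodes the cell death protein BIM, and *Mkl1* (0.33), a coactivator gene of serum response factor. For *Mycl* the nearest were *Chst12* (0.63), *Nlrx1* (0.64) and *Ankrd52* (0.65). *Myc* itself deviated by an RMS of 1.34 from its mean, *Mxd1* by 1.37 and *Mycl* by 1.07, so the match was close for *Mxd1* and loose for the others.

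The rest of the network was tested, by the quasi-likelihood fit of edgeR with p adjusted over all genes. These genes and the lists below were also chosen with earlier results of these data known. Their p therefore describe the genes and are not independent support. *Mycn*, the MYC paralogue of embryonic and neural tissue, had 157, 254 and 230 counts in WT-bright tdT and 189, 324 and 317 in AS-bright tdT. In WT-dim tdT it had 6, 9 and 76 counts and in AS-dim tdT 1, 2 and 2. *Mycn* was thus a bright tdT gene, in contrast to *Myc*. In WT it was higher in bright tdT by 2.51 on the log2 scale (SE 0.74, adjusted p = 0.0367), and WT-dim tdT library 3 held most of its dim reads. Without that library the value was 4.51, and with WT-dim tdT library 1 or 2 or WT-bright tdT library 2 or 3 left out singly it was 2.03 to 2.48 and not called. In AS, where every dim tdT library was at or under a floor of 3 counts, it was at least 82.3-fold higher in bright tdT (adjusted p = 9.84e-08). Between the genotypes in bright tdT, *Mycn* differed by 0.37 (SE 0.32, adjusted p = 0.547).

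*Bmyc*, a short MYC relative, had 7 to 54 counts, and *Mxd3*, an antagonist of dividing cells, had 0 to 106 and was tested in none of the comparisons. *Mlxip*, which encodes the MLX partner MondoA, had 2079 to 5020 counts, and *Mlxipl*, which encodes the MLX partner ChREBP, had 0 to 334. *Bmyc*, *Mlxip* and *Mlxipl* passed no test where they were tested, and the lowest adjusted p among them was 0.152 for *Mlxip* in AS over WT dim tdT (0.45, SE 0.18). *Mycs* was in neither table.

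Over all genes, edgeR called 0.452% in AS over WT bright tdT and 8.63% in dim tdT, an unadjusted p under 0.05 was reached by 21.8% and 26.3%, and DESeq2 called 7.76% and 15.1%. Beside these shares, none of 11 activating cofactors of MYC, 11 genes of MYC stability, 13 SIN3 corepressor genes or 10 genes of the Polycomb complex of MGA passed in AS over WT in either subpopulation, in edgeR's quasi-likelihood test. At an unadjusted p under 0.05 there was 1 gene in each list in bright tdT, and in dim tdT 1 cofactor, 0 stability, 2 SIN3 and 1 MGA complex gene. DESeq2 called 1 MGA complex gene in bright tdT, and in dim tdT 1 MGA complex and 1 SIN3 gene. The likelihood ratio test called 1 MGA complex gene in bright tdT. Of the Polycomb genes, 9 of 10 had a positive log2 fold change in bright tdT (median 0.37, against -0.03 over all genes) and 4 of 10 in dim tdT (-0.04, against -0.02). The SIN3 genes had medians of 0.15 and 0.05, the cofactors -0.00 and 0.04 and the stability genes -0.19 and -0.02 in bright and dim tdT.

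Between the subpopulations, where 25.3% of all genes were called in WT and 55.1% in AS, 5 of these genes passed in WT, with *Ruvbl2*, a chromatin ATPase (1.68, adjusted p = 0.0429), *Hdac1*, the SIN3 deacetylase (0.83, 0.0364), *E2f6* (2.57, 0.0110) and *Yaf2* (1.87, 0.0101) of the MGA complex higher in bright tdT and *Ppp2r5a*, a phosphatase subunit, lower (-1.34, 0.00302). *Ruvbl2* had 67.54 CPM in WT-bright tdT library 1, against 19.65 and 21.86 CPM in libraries 2 and 3 and 10.53 to 12.62 CPM in WT-dim tdT. In AS, 2 of 11 cofactors rose and 2 fell in bright tdT, with *Actl6a* the highest at 1.14. Of the stability genes 1 rose, *Trim32* (2.06, adjusted p = 0.00161), and 5 fell, led by *Ppp2r5a* (-1.23). Of 13 SIN3 genes 4 rose, with *Hdac1* at 0.81, and 3 fell, with *Arid4a* at -1.71 and *Arid4b* at -1.50. Of the 10 MGA complex genes 5 rose, among them *E2f6* (2.91) and *Yaf2* (2.88), and *Pcgf6*, which sits in the same complex, fell by 2.21 (adjusted p = 0.00136).

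The level of *Myc* was next set beside genes that MYC is known to raise. In AS over WT bright tdT, where *Myc* was 5.92-fold higher, 0 of 35 ribosome biogenesis genes and 0 of 33 metabolism and growth genes passed by edgeR's quasi-likelihood test, which called 0.452% of all genes. At an unadjusted p under 0.05 there were 4 and 11, and DESeq2 called 1 and 5, against 21.8% and 7.76% of all genes. The likelihood ratio test of edgeR called 0 and 1, of 827 genes in all, and in dim tdT 0 and 2, of 1946. All AS libraries lay above all WT libraries for 2 of the ribosome and 13 of the metabolism genes, against 13.6% of all genes. Their medians were -0.02 and 0.27 on the log2 scale, against -0.03 over all genes, and 13 and 23 genes of the lists were positive. The values ranged from -0.89 to 0.83 in the ribosome list and from -1.37 to 2.24 in the metabolism list. Nucleolin (*Ncl*) differed by -0.02 (SE 0.32), *Npm1* by -0.00 (SE 0.39), *Cdk4* by 0.03 (SE 0.22) and the ornithine decarboxylase gene *Odc1* by 0.46 (SE 0.20, adjusted p = 0.214). In dim tdT, where 8.63% of all genes were called, 0 of 35 and 0 of 33 passed (4 and 11 at an unadjusted p under 0.05, and 0 and 3 by DESeq2, against 26.3% and 15.1% of all genes), with medians of 0.12 and -0.14 against -0.02 over all genes, and *Ncl* at -0.17, *Npm1* at 0.47, *Cdk4* at -0.75 and *Odc1* at -0.34. The SEs of these genes, 0.18 to 0.39, set the size of change that could be seen.

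Between the subpopulations, where 25.3% of all genes were called in WT and 55.1% in AS, both target lists held genes called in each direction. Cell type markers differed between these libraries too, with medians in WT and AS of -7.15 and -4.60 for myeloid and 3.67 and 6.28 for endothelial markers. Their part in the differences of the targets was not tested. In WT, 3 of 35 ribosome biogenesis genes rose in bright tdT (*Nop58* 1.91, *Nop2* 1.71 and *Pa2g4* 0.86) and 2 fell (*Fbl* -1.41 and *Wdr43* -0.81). The groups of *Nop2* overlapped, at 9.712, 12.82 and 32.52 CPM in WT-dim tdT and 90.9, 59.74 and 29.66 CPM in WT-bright tdT. In AS, 2 rose (*Nop58* 1.06 and *Pa2g4* 1.01) and 7 fell, the furthest being *Fbl*, the nucleolar methyltransferase (-1.68, adjusted p = 7.38e-05), *Tcof1* (-1.66), *Wdr43* (-1.09) and *Rrp12* (-1.05). Of 33 metabolism and growth genes, 1 rose in WT, *Impdh2* of guanine nucleotide synthesis (1.37, adjusted p = 0.0106), and 6 fell. They fell from *E2f2*, a cell cycle transcription factor (-6.28, adjusted p = 8.76e-05), *Hk2*, a hexokinase (-3.52), *Mthfd2*, a mitochondrial folate enzyme (-3.26), and *Eno1* (-1.97) to *Odc1* (-0.96, adjusted p = 0.0145). In WT-bright tdT *Hk2* was at 0.3357 to 1.922 CPM and *E2f2* at 0.4984 to 1.611 CPM, so the size of their falls rests on few reads there. In AS, 8 rose, with *Phb* (1.34), *Impdh2* (1.17), *Ldha* (1.15) and *Cdk4* (1.08) first, and 10 fell, with *E2f2* (-4.96), *Hk2* (-4.82), *Mthfd2* (-2.43) and *Slc2a1* (-2.03) last. The medians of the ribosome list were 0.02 in WT and -0.18 in AS and those of the metabolism list -0.39 and -0.18, against -0.04 and 0.02 over all genes. *Ncl* and *Npm1* did not pass in either genotype (-0.53 and -0.39 in WT, -0.40 and -0.88 in AS), nor did *Cdk4* in WT (0.32) or *Odc1* in AS (-0.18).

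Of the genes that MYC is known to repress, 0 of 7 passed by edgeR's quasi-likelihood test in AS over WT bright tdT (0.452% of all genes). There were 3 at an unadjusted p under 0.05 (21.8%), 1 by DESeq2 (7.76%) and 1 by the likelihood ratio test (827 genes in all). Of these 7, 6 were positive and 1 negative, with a median of 0.35 against -0.03 over all genes. All AS libraries lay above all WT libraries for 3 of them, against 13.6% of all genes. The cell cycle inhibitor gene *Cdkn1a* was at 0.67 (SE 0.24, adjusted p = 0.154 in the quasi-likelihood test). In AS over WT dim tdT 3 of 8 passed (8.63% of all genes), 4 were positive and 4 negative, and the median was 0.27 against -0.02. *Gadd45b*, a stress response gene, rose by 0.75 (SE 0.17, adjusted p = 0.0339), and *Ndrg1* fell by 2.50 (SE 0.51, adjusted p = 0.0283) and *Ndrg2* fell by 3.44 (SE 0.75, adjusted p = 0.0283), while *Cdkn1a* was at 0.78 (adjusted p = 0.121). *Ndrg2* averaged 4.75 CPM in WT-dim tdT, so its fall rests on few reads. *Ndrg1* fell by 1.71 without WT library 1, and each of the 3 genes lost its call without AS library 1 or AS library 3, *Gadd45b* and *Ndrg2* also without AS library 2 or WT library 2, and *Gadd45b* without WT library 1. With the proximal tubule markers as a covariate *Ndrg1* was at -0.55 and *Gadd45b* at 0.40, and with either covariate none of the 3 passed. Between the subpopulations 1 of 7 passed in WT (25.3% of all genes) and 4 of 8 in AS (55.1%), all higher in bright tdT. The medians were -0.10 and 0.89, against -0.04 and 0.02 over all genes. *Cdkn1a* rose in the bright tdT cells of WT (1.64, SE 0.25, adjusted p = 0.00142) and of AS mice (1.503, SE 0.27, adjusted p = 0.00106). *Ndrg2* (2.55), *Cdkn1c* (1.96) and *Ndrg1* (1.38) rose in bright tdT in AS as well.

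*Mlx* was also set beside genes that its dimers with MLXIP and MLXIPL are known to raise. Of 7 tested between the subpopulations, 2 rose and 0 fell in bright tdT in WT, where 25.3% of all genes were called. In AS 2 rose and 2 fell, where 55.1% were called. The medians of the list were -0.36 in WT and -0.43 in AS, against -0.04 and 0.02 over all genes. *Txnip*, the thioredoxin-interacting protein gene that responds to glucose, rose in bright tdT over dim tdT by 1.55 in WT (SE 0.31, adjusted p = 0.00607) and by 1.47 in AS (SE 0.26, adjusted p = 0.000804). The related *Arrdc4* rose by 1.005 (adjusted p = 0.0493) and 1.64 (adjusted p = 0.000111), and in AS *Fasn* fell by 1.11 and *Klf10* fell by 0.92. Between the genotypes 0 of 7 genes passed in either subpopulation by edgeR, with 2 at an unadjusted p under 0.05 and 1 by DESeq2 in each. Of all genes edgeR called 0.452% in bright and 8.63% in dim tdT, 21.8% and 26.3% were under the unadjusted limit, and DESeq2 called 7.76% and 15.1%. *Txnip* was at -0.61 (SE 0.31) in bright tdT and -0.55 (SE 0.21) in dim tdT. *Arrdc4* was at 0.37 and -0.29.

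*Myc* is itself an early response gene, so 16 immediate-early genes were read beside it, which also rise when tissue is digested. Their summed level was 27820 to 45840 CPM in the bright tdT and 10590 to 16560 CPM in the dim tdT libraries. Within each genotype *Myc* was lower in bright tdT. Bright and dim tdT also differ in cell type markers, and the part of digestion was not tested. In bright tdT over dim tdT, where 13.8% of all genes were called higher in WT and 28.6% in AS, 12 of 16 rose in WT, led by *Jun* (2.99), *Fosb* (2.92), *Egr1* (2.58) and *Atf3* (2.58). In AS 11 rose, led by *Jun* (3.16), *Fosb* (3.01), *Atf3* (2.93) and *Egr1* (2.28), and *Klf6* (-1.16) and *Nr4a1* (-0.93) fell. Between the same libraries 14 of 14 endothelial markers were called higher in each genotype (medians 3.67 in WT and 6.28 in AS). The 7 myeloid markers tested were all called lower. Their part in the differences of the early genes was not tested. In AS over WT bright tdT 0 of 16 passed by edgeR (3 at an unadjusted p under 0.05, 1 by DESeq2, against 21.8% and 7.76% of all genes), with a median of -0.20, and in dim tdT edgeR called 1 gene, *Junb* (1.38, SE 0.16, adjusted p = 0.0142). *Junb* lost its call without AS library 1 or AS library 3. In dim tdT 8 of 16 were at an unadjusted p under 0.05 and DESeq2 called 4 (26.3% and 15.1% of all genes), with a median of 0.37 and 7 genes wholly higher in AS, against 15.0% of all genes.

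**Figure D4:**
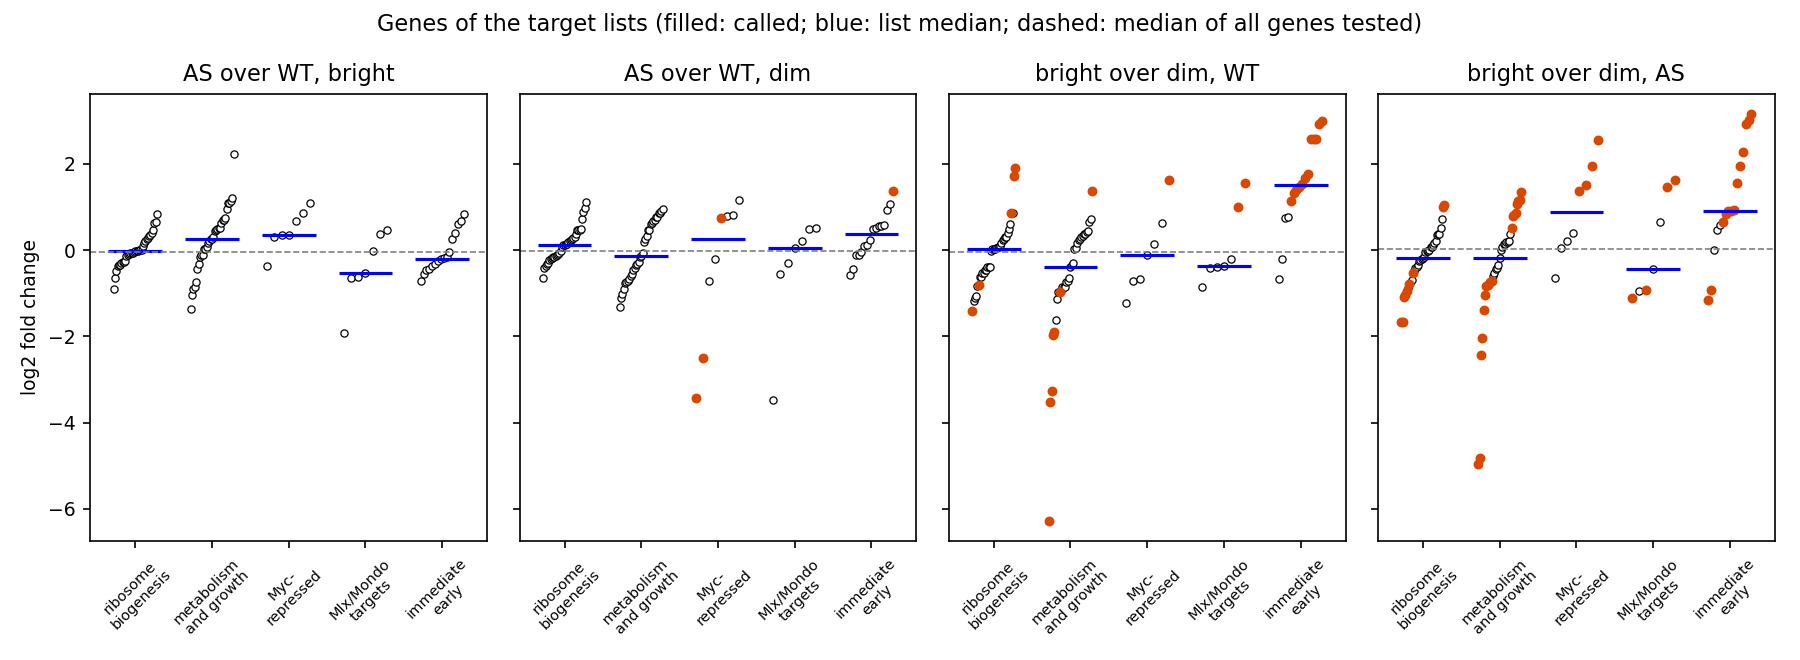
Log2 fold change (y axis) of the genes of 5 lists (x axis) in the 4 comparisons; each point is a gene, filled if called, the blue bar is the list's median and the dashed line the median of all genes tested. In AS over WT bright tdT no gene of the lists was called by edgeR's quasi-likelihood test, and the medians of the ribosome and metabolism lists were -0.02 and 0.27. The immediate-early genes had medians of 1.51 and 0.91 in bright over dim tdT.

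In the fit over all 12 libraries, none of the 7 genes followed in every comparison passed the interaction in edgeR. The largest of these interactions were *Odc1* at 0.84 (SE 0.26, adjusted p = 0.0919) and *Cdk4* at 0.83 (SE 0.35, adjusted p = 0.219), followed by *Arrdc4* at 0.70, *Ncl* at 0.18, *Txnip* at -0.03, *Cdkn1a* at -0.08 and *Npm1* at -0.44. In the lists of cofactors, stability, SIN3, MGA complex, ribosome biogenesis, metabolism, Mlx targets and immediate-early genes, 0 genes passed it, against 3.77% of all genes, with 11 of them at an unadjusted p under 0.05 (18.5% of all genes) and 1 called by DESeq2 (7.86%).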

How the data were processed

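The 12 libraries came from both sorted subpopulations of 3 WT and 3 AS mice. Per the labels and the methods of the study, the authors trimmed the reads, aligned them with STAR 2.6.0c to GRCm38.p5 with Gencode annotation, and deposited the counts STAR gave on each gene, which are not normalized. The RPKM values, computed by the authors for gene length and library size, were deposited beside the counts. They were used for levels between genes and for the antagonist sums and ratios, which were also compared between groups. The deposited tables also hold the authors' log2 fold changes, logCPM, likelihood ratios, p-values and FDR, which were not used. ERCC spike-in rows (92 a table) were left out.

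Counts were tested with the quasi-likelihood test of edgeR 4.0.16 in R 4.3.3 (TMM normalization, filterByExpr, Benjamini-Hochberg adjustment over all genes tested, threshold 0.05), on the 6 libraries of a comparison, and on all 12 for the interaction. The fit without the legacy setting was used, and edgeR's version 3 fit and the union exon lengths were chosen once values were known. CPM use TMM library sizes, and the floor of detection was 3 counts in each library. Union exon lengths and coordinates come from a Gencode M21 annotation of GRCm38 and promoters from RefSeq. Depths limit precision by counting error only, and no pair of replicates was alike within sampling noise (chi-square 29.5 to 104.4 per degree of freedom over 12 pairs). The script was tested on simulated data with known changes.

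A number in the labels marks 1 mouse, which pairs its libraries of both subpopulations. The tests reported between subpopulations and for the interaction did not use this pairing, which entered only the replicate block. Deviations from group means of the same mouse correlated at 0.106 to 0.317 in WT and 0.0507 to 0.331 in AS. The members, lists and tests were chosen with earlier results of these data known. Named are all members, the other genes of the network, from each list at most the 4 highest and the 4 lowest genes called, 7 genes in every comparison, and the 3 genes nearest in profile to 3 members. The fits were repeated with DESeq2 1.42.0, the likelihood ratio test, RLE normalization, unscaled library sizes and other filters. A replicate block, all 12 libraries in 1 fit and each library left out were also used. Marker covariates entered only the AS over WT fits, and neither bright over dim tdT nor the interaction. 1 gene that the naming rule covers is not reported here.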

Additional observations from a re-analysis of the deposited data

Results flagged for a closer look

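The difference between AS and WT was not the same in bright and dim tdT for 3 of the genes followed beside the members, by the interaction term of edgeR's quasi-likelihood fit over 12 libraries. *Mycn* had an interaction of 4.66 on the log2 scale (SE 1.23, adjusted p = 0.0437), a fitted value that depends on the prior count because AS-dim tdT had 1, 2 and 2 counts. WT-dim tdT library 3 held 76 of its counts, and without that library the interaction was 2.67 (adjusted p = 0.170). *Ndrg2* had 3.82 (SE 0.96, adjusted p = 0.0410) and *Cdkn1c*, which is also a podocyte marker, 1.87 (SE 0.48, adjusted p = 0.0468). *Ndrg2* averaged 4.75 CPM in WT-dim tdT and 2.04 CPM in WT-bright tdT and was lower in AS-dim tdT, so its value rests on few reads. *Cdkn1c* averaged 14.6 CPM in WT-dim tdT, 9.04 in AS-dim tdT, 15.6 in WT-bright tdT and 35.4 in AS-bright tdT, and the 8 podocyte markers, of which it is 1, had a median interaction of 2.14 with 6 called higher. Their median log2 fold change in AS over WT was 0.90 in bright and -1.37 in dim tdT. Their part in the *Cdkn1c* value was not tested. With 1 library left out at a time, each of the 3 was no longer called in most fits.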

How the results depend on the processing

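The counts of genes called moved most between AS and WT. In bright tdT, 65 genes were called, against 1117 by DESeq2, 827 by the likelihood ratio test, 39 with every gene kept, 139 with all 12 libraries in 1 fit, 0 with the proximal tubule covariate, 4 with the leukocyte covariate, 0 with edgeR's version 3 fit, 3145 at an unadjusted p under 0.05, and 0 to 281 with 1 library left out. In dim tdT, 1263 were called, against 2213 by DESeq2, 1946 by the likelihood ratio test, 2106 with all 12 libraries, 1 with the proximal tubule and 0 with the leukocyte covariate, 582 with the version 3 fit, 3844 unadjusted, and 0 to 1825 with 1 library left out. Keeping every gene had no such effect there. The interaction gave 569, against 1186 by DESeq2, 1114 by the likelihood ratio test, 2783 unadjusted and 252 to 857 with 1 library left out. Bright over dim tdT counts stayed within 1.5 times of 3604 and 7743.

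The replicate block gave 16 genes in AS over WT bright tdT, 494 in dim tdT and 877 for the interaction. Numbers of WT and AS are different mice, whose deviations correlated at a mean of -0.03 and -0.05, so they do not pair. With the block *Myc* was called in bright tdT (2.54) and not in dim tdT (1.14), nor was *Mycl* (2.90). Between bright and dim tdT it changed no call of a member.

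*Myc* in AS over WT bright tdT was positive in 17 of 17 alternatives (2.21 to 3.06) and called in 11. *Mycl* in dim tdT was reversed, at -0.20, with the leukocyte covariate. The cause was not tested. Low counts limit *Mycl*, *Mycn*, *Bmyc*, *Mxd3* and *Ndrg2*.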
